A study of Bos taurus with 16 samples.

Results

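The aryl hydrocarbon receptor pathway was followed through bovine preimplantation embryos by 9 genes, of the 22358 loci counted. These were the receptor AHR, its partners ARNT and ARNT2, its repressors AHRR and TIPARP, and its targets CYP1A1, CYP1A2, CYP1B1 and NQO1. The genes were taken by their symbols. The set was selected on the counts of CYP1A1, which had been seen only in embryos of methionine-supplemented cows, so the counts of CYP1A1 in this contrast are described here and not tested. The question put to the other 8 genes was whether the receptor, its partners and its other targets moved with CYP1A1. Of the 9 genes, 8 had at least 1 count in the 16 pools and 6 passed the filter on low counts (AHR, ARNT, ARNT2, TIPARP, CYP1A1 and NQO1).

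The embryos were expanded blastocysts of Holstein cows, 4 fed a control diet (labelled Control) and 4 fed a methionine-rich diet (labelled Methionine), in which rumen-protected methionine was added to the same basal ration from calving until embryo collection. Each cow gave 2 pools of embryos, named here by treatment, cow and pool, so that C1.1 to C4.2 were control and M5.1 to M8.2 methionine-rich. All cows were superovulated, inseminated and flushed according to the study's methods, whereas the tissue label reads IVF embryos. A pool held embryos of a single cow, so that the pools of a cow were not independent, and the methionine-rich pools tended to hold more embryos. The RNA of each pool was amplified linearly before the library was made. The study's methods state that the cows were chosen for the number and quality of their embryos and that sires were balanced over the treatments, but the labels give neither the sire nor the sequencing lane of a pool, so that their part in the values of single pools was not tested.

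AHR is a ligand-activated transcription factor of the bHLH-PAS family, held in the cytosol by HSP90 and its co-chaperones until it binds a ligand such as a polycyclic aromatic hydrocarbon or a tryptophan metabolite. It then enters the nucleus, pairs with ARNT and turns on genes that carry its response element. CYP1A1, a cytochrome P450 that oxidises aromatic hydrocarbons and estradiol, is the classical target and is low in most tissues without a ligand, and the targets AHRR and TIPARP in turn dampen the receptor.

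The total count was between 5624126 and 7826542 per pool in 15 pools, with a median of 7257007, and 1745048 in C3.2, which the main comparison leaves out for its small share of exon reads. A floor of 3 counts in a pool corresponded to between 0.383 and 0.533 CPM (counts scaled to 1000000 per pool) in the 15 pools. Markers of trophectoderm were present in every pool, with a summed level of 3781.17 to 9677.81 CPM in the control and 3050.7 to 7036.1 CPM in the methionine-rich pools. KRT18 alone was at 2566.65 to 6290.67 CPM and 1757.18 to 4925.72 CPM, whereas CDX2 had at least 3 counts in 11 of the 15 pools. Markers of the inner cell mass summed to 47.65 to 168.67 CPM in the control and 45.1 to 107.9 CPM in the methionine-rich pools. Leukocyte markers summed to 2292.8 CPM in C2.1 and to at most 6.68 CPM in a methionine-rich pool. No pair of pools held the same library.

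CYP1A1 (locus XLOC_010441) had no count in any control pool, C3.2 included. In the methionine-rich pools it had 354 counts in M5.2 and 186 in M7.2. Of the other 6 methionine-rich pools, M6.1 had 2 counts, M5.1 and M8.1 had 1 each and the rest had 0. The treatments therefore differed through a single pool of cow 5 and a single pool of cow 7, and the sister pools of the same cows, M5.1 and M7.1, were at the level of the remaining pools.

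On the CPM scale CYP1A1 was 46.71 in M5.2 and 28.259 in M7.2. These pools held 540 of the 544 counts. The mean was 9.44 ± 18 CPM in the methionine-rich pools (SD, n = 8) and 0 in the control pools (n = 7), and the median count was 1 and 0, respectively. Summed over pools, CYP1A1 was at 9.52 CPM in the methionine-rich group. A floor of 3 counts over the control group corresponded to 0.063 CPM, and the observed methionine-rich level was 151 times that floor. This ratio is a description and not a test, because CYP1A1 was chosen on these values. It leaves out the counting error of the methionine-rich counts and rests on M5.2 and M7.2. Without them, the 6 other methionine-rich pools held 0.0931 CPM together, close to that floor. Across all loci tested, 65 of 10519 (0.618%) had no count in any of the 7 control pools, and 93 (0.884%) none in any of the 8 methionine-rich pools. Because whole embryos were pooled, fewer cells with the transcript and less transcript per cell cannot be told apart, and neither can 1 embryo with much CYP1A1 and several with little.

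**Figure D1:**
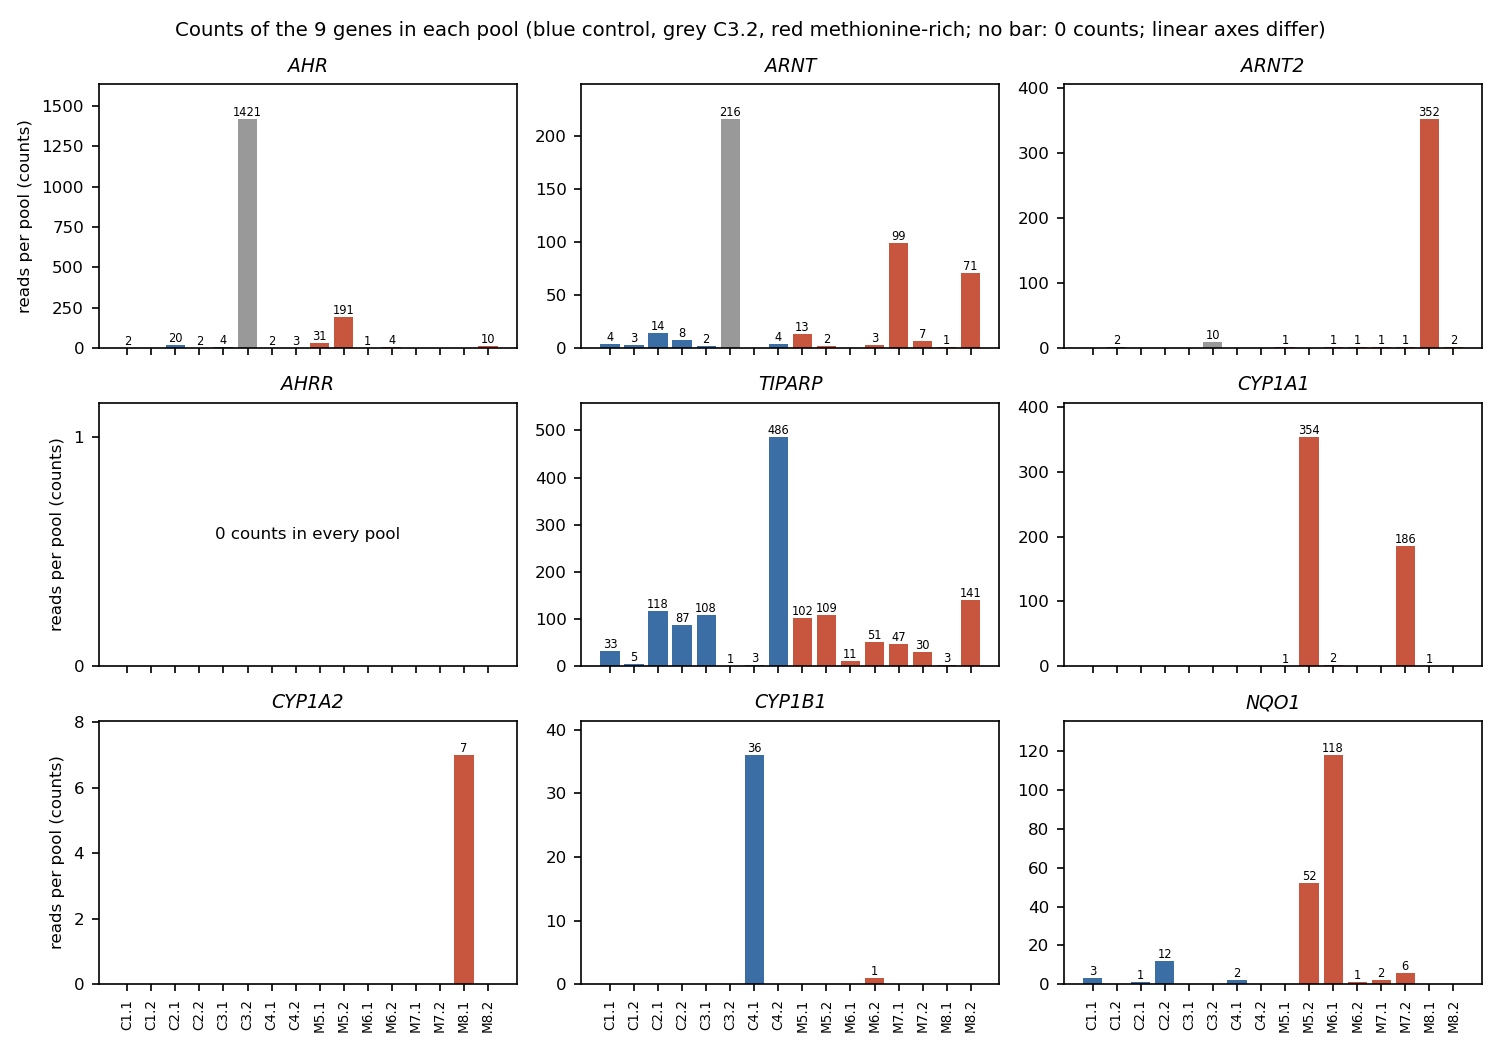
Counts of the 9 genes in each of the 16 pools, as bars on linear axes that differ between the panels (blue, control; grey, control pool C3.2, left out of the tests; red, methionine-rich; no bar, 0 counts). CYP1A1 stood at 354 and 186 counts in M5.2 and M7.2 and at no more than 2 elsewhere, whereas ARNT2 stood at 352 in M8.1 and TIPARP was highest in C4.2, with 486.

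The 1 or 2 counts of CYP1A1 in M5.1, M6.1 and M8.1 were 0.28% to 0.56% of its highest count. Such low counts beside a high pool were common in these files. At loci with at least 500 counts and at least 95% of them in 1 methionine-rich pool (6 loci), 20 of 42 values (47.6%) in the other methionine-rich pools were above 0, against 7 of 42 (16.7%) in the control pools. Where the high pool was a control pool (27 loci), 94 of 162 values (58%) in the other control pools and 34 of 216 (15.7%) in the methionine-rich pools were above 0. The part of this in the low counts of CYP1A1 was not tested. With at least 1 count taken as detection, CYP1A1 was detected in 5 methionine-rich pools, and with at least 3 or at least 10 counts in 2. Averaged over the pools of a cow, CYP1A1 was at 23.424, 0.136, 14.129 and 0.07 CPM in cows 5 to 8, all above the 0 of the control cows. Such a separation of cows was met by 122 of 10519 loci (1.16%), and in cows 6 and 8 it rested on 2 counts and 1 count, respectively.

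CYP1A2 (XLOC_010748), the neighbour and closest relative of CYP1A1 and also a target of the receptor, had 7 counts in M8.1 and 0 in the other 15 pools. It thus had none in M5.2 or M7.2, where CYP1A1 was high. The 7 counts of CYP1A2 and the high counts of CYP1A1 fell in different pools. The coding sequences of the CYP1A genes are alike, and whether reads were assigned to the wrong copy was not tested. CYP1B1 (XLOC_002391), a P450 of estradiol metabolism and a further target, had 36 counts in control pool C4.1, 1 in M6.2 and 0 in the other 14 pools, the opposite treatment to CYP1A1. Neither gene passed the filter. In the fit without a filter the log2 fold change (methionine-rich over control) was 3.10 for CYP1A2 (FDR = 1, exact test of edgeR) and -4.62 for CYP1B1 (FDR = 0.919), and neither gene was called.

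The receptor AHR (XLOC_016067) had 191 counts in M5.2, where CYP1A1 was highest, and 0 in M7.2, where CYP1A1 was also high. Among the other methionine-rich pools, M5.1 had 31 counts, M8.2 had 10, M6.2 had 4, M6.1 had 1, and M7.1 and M8.1 had 0. Among the 7 control pools tested, C2.1 had 20 counts, C3.1 had 4, C4.2 had 3, 2 were found in each of C1.1, C2.2 and C4.1, and none in C1.2. Both pools of cow 5 were above each of these 7 control pools, while the other cows of the treatments overlapped. AHR averaged 14.737 CPM in cow 5 and at most 0.675 CPM in cows 6 to 8, against 0.132 to 1.933 CPM in the control cows.

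The mean level of AHR was 3.954 ± 8.706 CPM in the methionine-rich pools (SD, n = 8) and 0.769 ± 1.24 CPM in the control pools (n = 7). The log2 fold change was 2.21 and not significant (exact test of edgeR, FDR = 0.835), and the median count was 2.5 against 2. DESeq2, which can replace the count of an outlying pool, estimated -0.17 ± 1.43 (SE). With C3.2 included the direction turned to -5.58 (FDR = 0.107). That pool held 1421 counts of AHR, 814.3 CPM, and AHR held rank 237 among its loci. The highest of the 7 other control pools held 3.56 CPM. C3.2 also held leukocyte markers at 165.04 CPM and hypoblast markers at 520.33 CPM in all, but no count of CYP1A1. These sums came from part of each list, as 3 of 7 leukocyte genes and 2 of 4 hypoblast genes had at least 3 counts there. The part of those markers or of the low exon share of C3.2 in its AHR count was not tested.

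ARNT (XLOC_014959), the partner that AHR needs to bind DNA and that HIF1A also uses, was found at a few counts in nearly all pools. M7.1 had 99 counts and M8.2 had 71, followed by M5.1 with 13, M7.2 with 7, M6.2 with 3, M5.2 with 2, M8.1 with 1 and M6.1 with none. The 7 control pools tested had between 0 counts (C4.1) and 14 (C2.1), and the median was 4 counts in the control and 5 in the methionine-rich pools. The highest pools of ARNT were thus M7.1 and M8.2, and not the pools with high CYP1A1. The mean level was 3.25 ± 4.958 CPM (SD, n = 8) against 0.784 ± 0.841 CPM (n = 7), with a log2 fold change of 2.17 (FDR = 0.73, exact test of edgeR; 1.19 ± 1.19 by DESeq2). Cows of the treatments overlapped, at 0.252 to 6.856 CPM and 0.257 to 1.864 CPM. With C3.2, where ARNT had 216 counts, the direction turned to -2.92 (FDR = 0.363).

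ARNT2 (XLOC_010390), a relative of ARNT with a more restricted expression, had 352 counts in M8.1 and no more than 2 in each of the 14 other pools tested. The 7 control pools tested had 2 counts in C1.2 and 0 elsewhere, and C3.2 had 10. Of the other methionine-rich pools, M8.2 had 2 counts, M5.2 had 0 and the remaining 5 had 1 each. The gene was therefore near the floor in both pools with high CYP1A1, and 97.4% of its summed CPM fell in M8.1. Its log2 fold change of 6.77 was the largest of the tested genes other than CYP1A1 and missed the threshold (FDR = 0.11, exact test of edgeR; 0.312 by the quasi-likelihood test; 1.37 ± 2.68 by DESeq2). It passed without cow 5 (FDR = 0.0673) or without cow 6 (FDR = 0.0923), while without cow 8, the source of M8.1, it was under the filter and had no value.

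AHRR (XLOC_010316), the repressor that competes with AHR for ARNT and that the receptor itself induces in many cells, had 0 counts in all 16 pools, M5.2 and M7.2 included. Its absence was readable only down to the floor of the depth, 3 counts or 0.383 to 0.533 CPM in a pool of the main comparison. TIPARP (XLOC_000738), the ADP-ribosyltransferase that shuts off AHR and is among its most direct targets, was the only one of the 9 genes with at least 3 counts in each of the 15 pools. From high to low, its counts in the methionine-rich pools were 141 (M8.2), 109 (M5.2), 102 (M5.1), 51 (M6.2), 47 (M7.1), 30 (M7.2), 11 (M6.1) and 3 (M8.1). In the control pools they were 486 (C4.2), 118 (C2.1), 108 (C3.1), 87 (C2.2), 33 (C1.1), 5 (C1.2) and 3 (C4.1). The treatments overlapped over almost their whole range.

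TIPARP in M5.2 and M5.1 differed little (14.382 and 14.055 CPM), beside 354 counts and 1 count of CYP1A1, and M7.2 had fewer counts of TIPARP than M7.1. The mean was 8.567 ± 6.683 CPM in the methionine-rich pools (SD, n = 8) and 16.724 ± 21.598 CPM in the control pools (n = 7), the latter raised by C4.2 at 62.481 CPM. The log2 fold change was -0.95 (FDR = 0.931, exact test of edgeR; -0.93 ± 0.83 by DESeq2) and stayed negative, between -1.32 and -0.38, under all 20 alternatives run, with no FDR under 0.785.

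NQO1 (XLOC_007422), a quinone reductase induced both by AHR and by NRF2, had counts in 5 of the methionine-rich pools, namely 118 (M6.1), 52 (M5.2), 6 (M7.2), 2 (M7.1) and 1 (M6.2). Of the control pools, 4 had counts, namely 12 (C2.2), 3 (C1.1), 2 (C4.1) and 1 (C2.1). The highest pool, M6.1, had 2 counts of CYP1A1. The next, M5.2 and C2.2, had 354 and 0. Within cows, NQO1 was at 6.861 CPM in M5.2 and 0 in M5.1, and at 0.912 CPM in M7.2 and 0.256 CPM in M7.1. The values of cow 7 rest on 6 and 2 counts. The mean level was 3.034 ± 5.767 CPM (SD, n = 8) against 0.394 ± 0.665 CPM (n = 7), with medians of 1.5 counts and 1 count. The log2 fold change of 3 was not significant (FDR = 0.701, exact test of edgeR; 1.53 ± 1.8 by DESeq2).

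None of the 5 tested genes other than CYP1A1 was called, a call being a difference of 2-fold or more with an FDR below 0.1. Over all loci the exact test called 110 of 10519 (1.05%), 29 of them (0.276%) higher in methionine-rich and 81 (0.77%) higher in control pools. Beside that background, 0 of 5 does not set these genes apart from other loci. The quasi-likelihood test of edgeR, which allows for the uncertainty of the dispersion, called 0 loci (0%), with 909 at an unadjusted p under 0.05. For the members, the unadjusted p of the exact test, fitted across all loci by edgeR, was 0.15 for AHR, 0.0924 for ARNT, 0.00139 for ARNT2, 0.246 for TIPARP and 0.0814 for NQO1. These tests treated the pools of a cow as independent. With the pools of each cow summed, the FDR by the exact test of edgeR was 1, 0.913, 0.165, 1 and 0.856, in the same order.

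**Figure D2:**
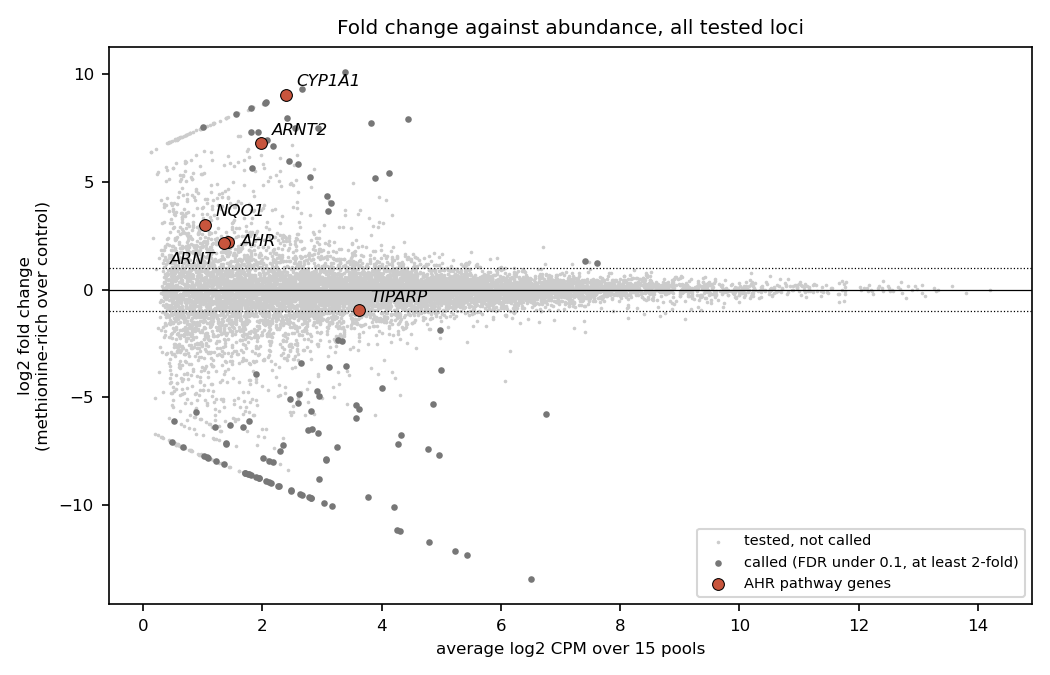
Log2 fold change (methionine-rich over control) against average log2 CPM for the 10519 loci tested over 15 pools (small light points, not called; darker points, called; red points, the 6 AHR pathway genes that passed the filter; dotted lines, 2-fold). AHR, ARNT and NQO1 lay at 2.17 to 3 and TIPARP at -0.95, all among uncalled loci of like average, and the value of CYP1A1 depends on the prior count because its control counts were all 0.

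Most of the genes were carried by single pools, which AHR and CYP1A1 shared (M5.2) and which differed for the 4 others. The highest pool held 68.1% of the summed CPM of AHR (M5.2), 61.9% of CYP1A1 (M5.2), 59.5% of NQO1 (M6.1), 40.2% of ARNT (M7.1), 97.4% of ARNT2 (M8.1) and 33.7% of TIPARP (C4.2). Among the 4144 tested loci within the range of average log2 CPM of these genes, 17.1% had at least 50% of their CPM in 1 pool, and the median locus had 26.2% in its highest pool. A share as high as that of CYP1A1 was reached by 8% of all tested loci, and as high as that of ARNT2 by 1.4%. The summed CPM was 37.02 for AHR, 27.03 for NQO1 and 50.29 for ARNT2. These genes passed the filter of 15 only through their highest pool. Their shares, and the direction of their fold changes, therefore partly follow from the filter and carry no weight of their own.

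The likeness of each gene to CYP1A1 was expressed as the overlap of their shares over the 15 pools, that is, the sum over pools of the smaller of the shares, which is 100% for equal profiles. It was 62.4% for AHR, 29.1% for NQO1, 10.9% for TIPARP, 4.6% for ARNT and 0.9% for ARNT2, with a median of 12.4% over all tested loci. An overlap as high was found at 0.2% of loci for AHR, 3.7% for NQO1, 60.2% for TIPARP, 85.2% for ARNT and 93.6% for ARNT2, so that the partner genes were less like CYP1A1 than most loci. The overlap of AHR came from M5.2 alone, as AHR had no count in M7.2, and it was 3.2% over all 16 pools, where C3.2 held most AHR counts. All of these are descriptions of shared pools. They were computed on the contrast in which CYP1A1 was chosen and carry no test.

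**Figure D3:**
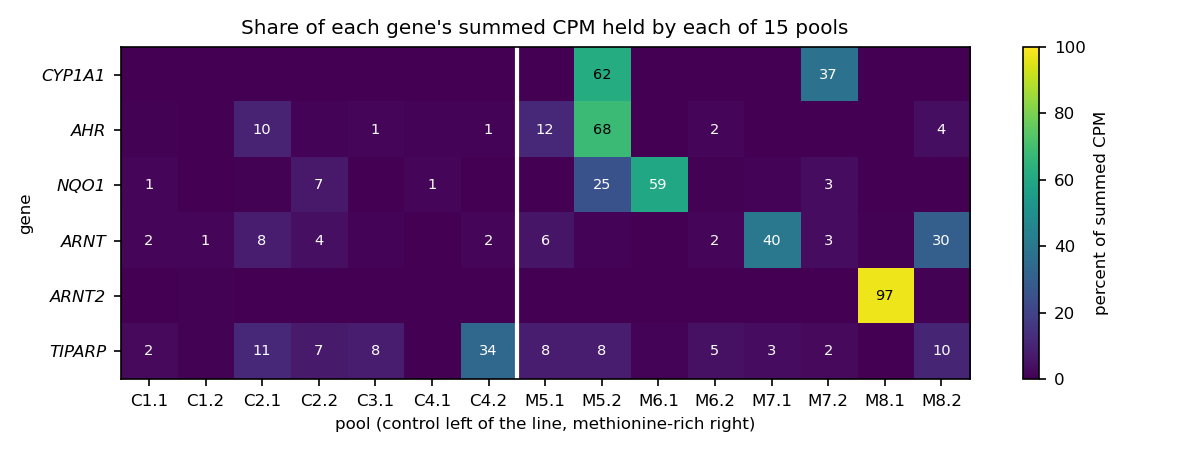
Share of the summed CPM of each gene held by each of the 15 pools, in percent (color scale 0 to 100; numbers under 1 not written; control pools left of the white line). CYP1A1 shared its first pool, M5.2, with AHR (68.1% of AHR) but none of its second, M7.2, while ARNT, ARNT2 and TIPARP peaked in M7.1, M8.1 and C4.2.

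The profile of CYP1A1 was met by loci outside the pathway. The 10 loci most like it, and their overlap, were ZNF689 (94.9%), CDH7 (89.2%), the locus of CYB5R2 and OVCH2 (84.2%), MAP7D2 (83.2%), NHLRC3 (80.2%), LOC100849252 (70%), CAPN11 (69.6%), HRASLS (68.9%), SERAC1 (68.8%) and PPTC7 (67.1%). ZNF689, a zinc finger protein gene, had 111 counts in M5.2, 65 in M7.2 and at most 3 in any other pool. CDH7, a cadherin gene, had 112, 69 and at most 12, and PPTC7, a mitochondrial phosphatase gene, had 249, 408 and at most 100. Some of the 10 were less alike, such as LOC100849252 with 129, 12 and at most 19, and CAPN11 with 148, 38 and at most 40. A control pool had the highest other count at these 2 loci, and also at ZNF689 (3), CDH7 (12), MAP7D2 (43), NHLRC3 (9) and HRASLS (8). At the locus of CYB5R2 and OVCH2, at SERAC1 and at PPTC7 it was a methionine-rich pool. None of the 5 tested pathway genes was among these 10. AHR, at 62.4%, was among the 75 loci with an overlap of at least 50%.

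A pairing of pools like that of CYP1A1 was also found for other pairs. With at least 80% of the CPM in 2 pools and at least 20% in the second of them, 271 tested loci were found, spread over 95 of the 105 possible pairs of pools. M5.2 and M7.2 held 7 of these loci, the most for any pair, a number that 4 pairs reached. Of all tested loci, 7.1% were highest in M5.2 or M7.2.

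The wider pathway was followed by 9 lists of genes, 88 symbols in all, of which 81 were found at 85 loci and 44 loci were tested. None was called higher in methionine-rich pools and 1 was called higher in control pools, against 29 and 81 of all 10519. The log2 fold change was above 0 for 15 and below 0 for 29 of the 44, with a median of -0.28, beside a median of -0.05 over all tested loci (4888 above 0 and 5631 below). Of the 44, 1 (2.3%), TXNRD1, was highest in M5.2 or M7.2. Of the 41 loci that were not tested, 33 had a count and 3 of these were highest in M5.2 or M7.2. SERPINB2, described with the other targets, was among the 3. The same share over all untested loci was not computed, so that 3 of 33 does not set these loci apart.

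Of the chaperones that hold AHR in the cytosol, 3 were tested, and these were found in all 15 pools. Levels are in CPM, which are not scaled to gene length. HSP90AA1 was at 1119.89 ± 199.84 CPM in the methionine-rich pools (SD, n = 8) and 1248.65 ± 226.17 CPM in the control pools (n = 7), and HSP90AB1 at 888.67 ± 475.29 and 1120.75 ± 758.89 CPM. PTGES3, the p23 co-chaperone, was at 293.04 ± 126.04 and 393.83 ± 308.2 CPM. None of these 3 was called, at log2 fold changes of -0.18, -0.35 and -0.47. The kinase SRC, named after its values were seen, had no count in the 15 pools. Of the coregulators, 0 of 7 tested were called, with a median log2 fold change of -0.16, with values of -0.30 for the acetyltransferase CREBBP, -0.16 for the remodeller SMARCA4 and -0.15 for the coactivator NCOA1.

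Other partners of ARNT and bHLH-PAS proteins were tested at 3 loci and none was called. HIF1A, the hypoxia factor that shares ARNT with AHR, was at 13.29 ± 18.27 and 15.49 ± 16.77 CPM in the methionine-rich and control pools (log2 fold change -0.34). HIF3A and the clock gene ARNTL had log2 fold changes of -5.24 and -1.72 and were highest in C2.1, the pool with leukocyte markers, which held 82.8% and 63.6% of their summed CPM. The part of that pool in these values was not tested. Of the hypoxia targets of ARNT with HIF1A, 0 of 8 tested were called, with a median of 0.10. The glucose transporter SLC2A1 was at 252.62 ± 47.19 against 241.67 ± 66.73 CPM, and the prolyl hydroxylase P4HA1 and the peptide hormone ADM had log2 fold changes of -0.37 and -0.48.

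The other targets of AHR gave 0 calls among 7 tested loci, with a median log2 fold change of -0.26. The locus shared by UGT1A1 and UGT1A6, glucuronosyltransferases, was at 354.29 ± 83.64 CPM in the methionine-rich pools and 298.09 ± 150.3 CPM in the control pools (log2 fold change 0.29). SLC7A5, a transporter of large neutral amino acids, methionine among them, was at 44.12 ± 13.78 and 81.95 ± 74.42 CPM (-0.94, FDR = 0.506, exact test of edgeR). NFE2L2, the gene of NRF2, had a log2 fold change of 0.24. Below the filter, SERPINB2, the gene of a plasminogen activator inhibitor, had 10 counts in M5.2, 8 in M7.2 and 0 in the 13 other pools compared at its locus XLOC_012327. It was the only list locus with at least 3 counts in both pools with high CYP1A1 and none in those 13. The share of all loci with this pattern was not computed, so that the pattern does not set SERPINB2 apart from other loci. It also had 13 counts in control pool C3.2, where CYP1A1 had 0, and its other locus, XLOC_012296, had 1 count in the 15 pools. ALDH3A1, a target usually induced with CYP1A1, had no count in the 15 pools. Both were named after their values were seen. Of the NRF2 targets listed with NQO1, 0 of 4 tested were called (median -0.01), with TXNRD1, thioredoxin reductase, at -0.02 and GCLC, of glutathione synthesis, at 1.35, the latter with 68.5% of its CPM in M8.2.

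Enzymes that make AHR ligands from tryptophan gave 0 calls among 4 tested loci (median log2 fold change -0.59). Among them were the kynurenine aminotransferases CCBL1 (-0.02) and CCBL2 (-1.17, FDR = 0.632, exact test of edgeR). The electron donors and heme enzymes on which P450s depend gave 0 calls among 5 (median -0.04), with CYB5R3 at -0.56 and CYB5A at 0.47. POR, the reductase of all microsomal P450s, named for its role after its values were seen, was at 7.61 ± 4.82 and 7.59 ± 6.27 CPM. Of the other P450s, 3 were tested and 1, CYP27A1, a mitochondrial sterol hydroxylase, was called higher in control pools (FDR = 0.0261, exact test of edgeR). It had 298 counts in C2.1, the pool with leukocyte markers at 2292.8 CPM, 5 counts in the 14 others together and 0 in all methionine-rich pools, so that its call rests on C2.1. The part of those cells was not tested. CYP51A1 and CYP2J2 were not called, at -0.88 and -3.31.

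**Figure D4:**
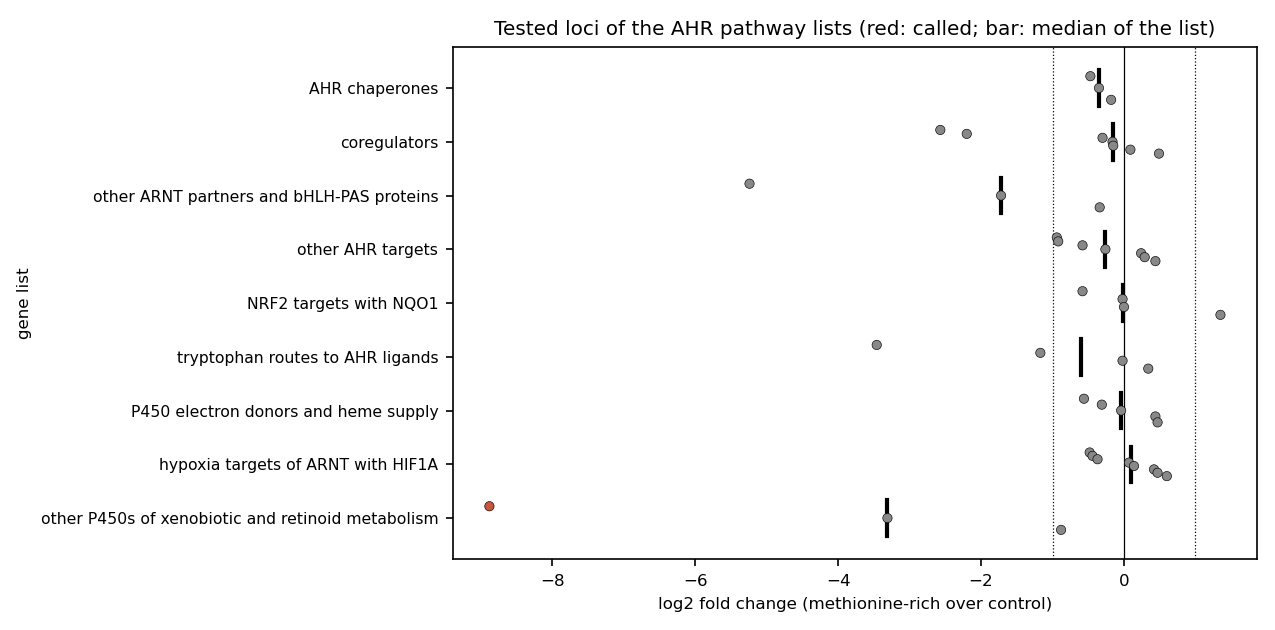
Log2 fold change (methionine-rich over control) of the tested loci of 9 gene lists around the receptor, 1 point per locus (red, called; bar, median of the list; dotted lines, 2-fold). The medians lay between -3.31 (3 P450s) and 0.10 (hypoxia targets), and CYP27A1 was the only called locus.

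The genes next to CYP1A1 were examined to see whether the stretch around it was read in the same pools. In the order of the RefSeq annotation of ARS-UCD2.0, an assembly other than that of the files, the 5 protein-coding genes on either side were ULK3, CPLX3, LMAN1L, CSK and CYP1A2, and EDC3, CLK3, ARID3B, UBL7 and SEMA7A. Of these 10, 5 were tested and none was called, with log2 fold changes from -0.95 (CLK3) to 0.35 (CSK and UBL7). CSK, a kinase that restrains the SRC family, had its highest levels in M7.2 (156.03 CPM) and M5.2 (142.64 CPM), beside means of 93.97 CPM in methionine-rich and 71.29 CPM in control pools, but it was present in all pools. UBL7 was highest in M7.2, with 25 counts, and had 1 in M5.2, and ARID3B had 26 in M5.2 and 1 in M7.2. LMAN1L and SEMA7A had no count in either.

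Marker levels of the pools with high CYP1A1 were read beside those of the 13 others. Trophectoderm markers summed to 3585.06 CPM in M5.2 and 3360.68 CPM in M7.2, with only M8.1 lower, at 3050.7 CPM. Inner cell mass markers summed to 46.05 and 64.72 CPM, within the range of the 13 other pools. The part of these levels in the CYP1A1 counts was not tested. Leukocyte markers summed to 0.53 and 0 CPM. Uterine epithelial markers summed to 0.13 and 0 CPM, with PGR and OXTR at 0 in M5.2. Hepatocyte markers, of a tissue with inducible CYP1A1, summed to 0 and 1.06 CPM, against up to 6 CPM in M6.1. The level in M7.2 was 7 counts of TTR, the only pool of the 15 with at least 3, and ALB and APOB were at 0 in both pools. Cumulus and granulosa markers summed to 2.38 and 8.2 CPM, nearly all from CYP19A1, which trophoblast also expresses, and FOXL2 and INHA were at 0 in all pools. Red cell markers summed to 6.6 and 17.02 CPM, and sperm markers to 0.79 and 25.07 CPM, both within the range of the other pools. These sums came from ALAS2 (50 and 112 counts) and TNP1 (6 and 165 counts) alone, with HBB at 1 count or fewer and HBA and PRM1 at 0 in each of the 15 pools.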

How the data were processed

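RNA of 16 embryo pools, 2 from each of 8 cows, was sequenced. According to the labels and the study's methods, the authors mapped reads to bosTau7 with TopHat2 2.0.4, assembled transcripts with Cufflinks 2.0.2 and counted reads per gene with HTSeq. The deposited values are raw counts, without normalization, in 22552 rows for 22358 loci, each entered once. No source used here states whether strand was used. CPM are counts scaled to 1000000 per pool. Intervals and floors cover counting error only.

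Loci with a summed CPM of at least 15 over 15 pools (C3.2 left out) were kept. In R 4.3.3 with edgeR 4.0.16, counts were normalized by TMM, common and tagwise dispersions estimated and treatments compared by the exact test, with Benjamini-Hochberg adjustment over all 10519 loci tested. Its prior count was 0.125. Loci were called at 2-fold or more with an FDR below 0.1. Because the pools of a cow are not independent, p-values may be too small. Standard errors came from DESeq2 1.42.0. The code was tested on simulated data of smaller spread than these counts, which checks the code and not its power here. The genes, lists and markers were chosen with earlier results of these data known. The named genes are the 9 genes, called list members and otherwise the 2 to 4 of highest mean CPM of each list, the 10 loci most like CYP1A1 and its neighbours. SRC, ALDH3A1, SERPINB2 and POR were named outside this rule.

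Alternatives were DESeq2, the quasi-likelihood test of edgeR and voom of limma 3.58.1 with cow as random effect, besides pools summed per cow, and changes to the normalization, the filter, the pools included and the cows left out, and a block for pool number. Pool numbers 1 and 2 mark the pools of 1 cow and pair nothing across treatments. A further alternative, with counts under 1% of a locus's highest set to 0, was chosen after seeing the data. All 9 genes matched the RefSeq table, which is of another build, so that no coordinates are given. Sequences of promoters and proteins were not analysed here, and 1 list member is not reported here.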

Additional observations from a re-analysis of the deposited data

Results flagged for a closer look

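Of 14 groups of pools (1 gene in 1 treatment) with any spread, 10 had a pool far above the rest by Dixon's ratio, the gap to the nearest pool over the whole range. In 4 of the 10 only 1 pool had any count, which fixes the ratio at 1. For normally distributed values chance flags about 1 group in 20, a figure that does not apply to those 4. Whether it holds for the other groups, whose counts were uneven and often low, was not tested. The share of all loci flagged by the same ratio was not computed, so 10 of 14 does not set these genes apart from other loci. The ratio was 0.848 for AHR in C2.1 (3.56 CPM, the next pool 0.54), 0.831 for AHR in M5.2 (25.2, next 4.27) and 0.994 for ARNT2 in M8.1 (49, next 0.27). It was 1 for ARNT2 in C1.2, which rests on 2 counts, and 1 for CYP1A2 in M8.1 and CYP1B1 in M6.2 and C4.1, each the only pool of its treatment with a count. TIPARP gave 0.669 in C4.2 (62.48 CPM, next 20.98). NQO1 gave 0.787 in C2.2 (1.86 CPM, next 0.4) and 0.573 in M6.1 (16.08 CPM, next 6.86). The pool differed from gene to gene, M8.1 being the only one met for more than 1 gene.

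Control pool C3.2, not used in the comparison, held more of 3 genes than any of the 7 other control pools: AHR at 814.3 CPM (the highest other, 3.56), ARNT at 123.8 CPM (2.49) and ARNT2 at 5.7 CPM (0.3). AHR took 0.0814% of its counts. CYP1A1, CYP1B1, AHRR and NQO1 had none there, and TIPARP 1.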

How the results depend on the processing

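The number of loci called depended on the test, the filter and the pools included. Against 110 by the exact test (29 higher in methionine-rich, 81 in control), the quasi-likelihood test called 0, voom with cow as random effect called 0 (421 at an unadjusted p under 0.05), and the quasi-likelihood test with a replicate block for pool number called 0. DESeq2 called 67 (28 higher in methionine-rich and 39 in control), and pools summed per cow gave 78 (32 and 46). No filter gave 55 (13 and 42), filterByExpr 5 (2 and 3), all 16 pools 356 (60 and 296), and leaving out C2.1 64 (19 and 45). With low counts set to 0, chosen after seeing the data, 42 were called (8 and 34). Leaving out each cow in turn gave 62 to 153 calls, 15 to 36 higher in methionine-rich and 32 to 138 higher in control. The cause of these shifts was not tested.

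Of the genes other than CYP1A1, 0 to 1 were called when each cow was left out, ARNT2 being the one, without cow 5 or cow 6, and 0 in all other fits. The pool number pairs nothing across treatments, and its block changed no call of these genes. AHR reversed to -0.17 by DESeq2 and to -5.58 with all 16 pools, and ARNT to -2.92 with all 16 pools. ARNT2 (1.37 to 8.6), TIPARP (-1.32 to -0.38) and NQO1 (1.08 to 4.17) kept their direction wherever they had a value. Some fits left a gene under the filter and gave it none, such as AHR without cow 5. CYP1A1 was found in 5 methionine-rich pools at 1 count or more. The count of AHR response elements in promoters was not run.

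Counts of most of these genes lay near the floor of 3 per pool, where absence cannot be read. Both pools of a cow share the cow, and a difference carried by 1 pool has no replicate.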
